A study of Homo sapiens with 12 samples.

Results

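The 43 genes described here act in autophagy and in the lysosome, and were listed by name. No measured value enters that list as a threshold, though it was drawn up with earlier results of these data known. All 43 were found by Ensembl ID among the 60675 gene IDs of the count table. They fall into 10 roles: initiation (4 genes), the class III PI3K complex (3), effectors that bind PI3P (2), conjugation of the ATG8 proteins (6), the ATG8 proteins themselves (5), cargo receptors (5), the MiT/TFE transcription factors (3), lysosomal membrane proteins (3), lysosomal hydrolases (9) and the V-ATPase proton pump (3). RNA was sequenced from SW1783, an established human astrocytoma line, after 24 h with a water extract of the root of Aconitum carmichaeli Debeaux (ACD) at 20 µg/mL (low dose), 100 µg/mL (medium dose) or 500 µg/mL (high dose), or with the vehicle, PBS with DMSO, in which the stock of the extract was also made up. The 4 groups had 3 libraries each and came from 1 cell line, and no source states that the libraries came from separate cultures, so the p-values measure the spread between these libraries, which may be technical. The extract is named after the titles and treatment labels of the samples, while the treatment protocol filed with them speaks of Poria cocos, a different herb.

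Autophagy is the route by which a cell encloses its own material in a double membrane, the autophagosome, and delivers it to the lysosome. The ULK1 kinase complex starts the process, the BECN1 lipid kinase complex marks the site with the lipid PI3P, and WIPI proteins read that mark. Small ubiquitin-like ATG8 proteins (the LC3 and GABARAP families) are then attached to the growing membrane, where receptors such as SQSTM1 (p62) bring in cargo. Lysosomal hydrolases digest the cargo in an acid lumen that the V-ATPase maintains, and the factors TFEB, TFE3 and MITF are known to activate many of these genes. Transcript levels do not measure the flow of material through this route, since SQSTM1 and lipidated LC3 are themselves degraded in the lysosome.

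At the high dose most of these genes were modestly higher than in vehicle and a few were several fold higher. Of the 43 members, 30 rose and 7 fell (DESeq2 Wald test, adjusted p under 0.05), where 23.9% of the 19453 genes tested rose and 22.6% fell. Among the 9178 tested genes with a mean normalised count at least as high as that of the lowest member, 38.0% rose and 32.3% fell. These genes are called those at the members' level, and they are the background for the counts by role below. High dose and vehicle libraries did not overlap in 39 members (90.7%) and in 7223 of these genes (78.7%). Group means followed the order of dose in 20 of the 30 rising members (66.7%) and in 58.0% of these genes that rose. Lack of overlap and order by dose were therefore frequent at this level. The median log2 fold change was 0.27 over the members and 0.0023 over the 15282 genes with a mean of at least 10. A differentially expressed gene (DEG) also had to change by more than 1.5-fold, a limit that its p-value does not test. By that rule 8 members were DEGs upward, where the background was 8.66%, and 0 were DEGs downward, where it was 9.57%. The 8 were SQSTM1, WIPI1, MAP1LC3B, OPTN, GABARAPL1, CTSD, CALCOCO2 and ULK1. Because RNA was taken from whole cultures, a change in the number of cells of a kind and a change in RNA per cell cannot be told apart.

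**Figure D1:**
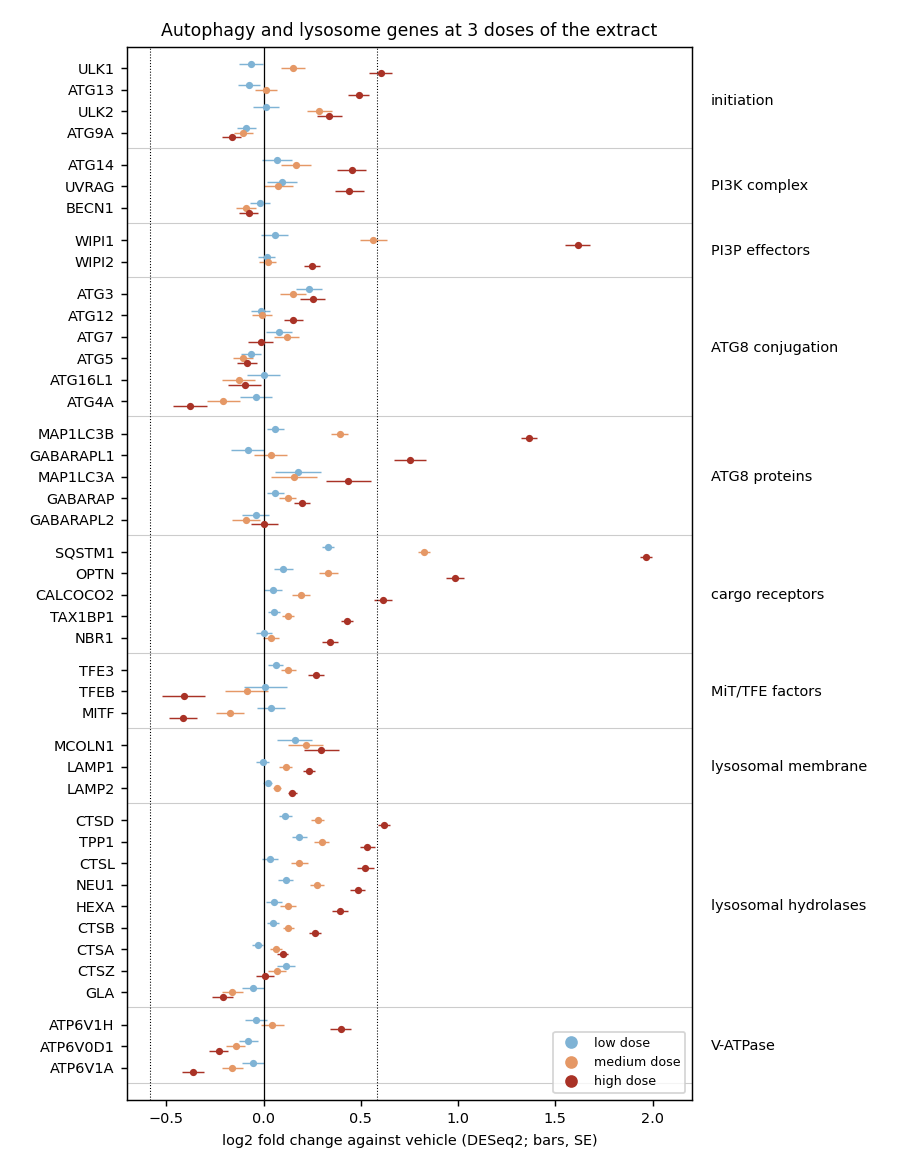
Log2 fold change against vehicle (x axis, DESeq2, bars show the standard error, dotted lines mark 1.5-fold) of each of the 43 members (y axis, by role) at the low, medium and high dose. The high dose values run from -0.41 for MITF and TFEB to 1.96 for SQSTM1, and the cargo receptors all lie above 0.

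All 5 cargo receptors rose at the high dose, with a median log2 fold change of 0.61, and 3 of them were DEGs. Among genes at the members' level 38.0% rose and 9.13% were DEGs upward. SQSTM1, at chr5:179806398-179838078, plus strand (GRCh38), encodes p62, which binds ubiquitinated cargo and LC3 and also captures KEAP1, the inhibitor of NRF2. Its normalised counts were 9745, 10497 and 10726 in the vehicle libraries, 13107, 13178 and 12666 at the low dose, 18118, 18423 and 18279 at the medium dose and 39111, 40446 and 41319 at the high dose. No group overlapped another, and each step in dose lay above the one before it. Against vehicle SQSTM1 was 1.26-fold higher at the low dose (log2 fold change 0.33, adjusted p = 6.93e-23), 1.77-fold at the medium dose (0.82, adjusted p = 1.62e-152) and 3.9-fold at the high dose (1.96, standard error 0.031, with an adjusted p that DESeq2 gave as 0). The high dose also lay 2.21-fold above the medium dose. Of the exon bases of SQSTM1, 22.4% overlap genes on the other strand. One of those genes, MRNIP, itself rose from 716 ± 23.6 (mean ± SD, n = 3) in vehicle to 1706 ± 43.9 at the high dose, a count far below that of SQSTM1, and whether the counting used strand is not stated.

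OPTN and CALCOCO2 (also called NDP52) are receptors for damaged mitochondria and for bacteria. OPTN, at chr10:13099449-13138308, plus strand, held 1181, 1228 and 1182 normalised counts in vehicle, 1298, 1301 and 1258 at the low, 1505, 1536 and 1485 at the medium and 2404, 2342 and 2367 at the high dose. It was 1.98-fold higher at the high dose (log2 fold change 0.98, standard error 0.046, adjusted p = 5.38e-100) and 1.26-fold higher at the medium dose (adjusted p = 8.43e-11), while the low dose libraries lay above vehicle without overlap but missed the threshold at a log2 fold change of 0.10 (adjusted p = 0.309). CALCOCO2, at chr17:48831018-48866522, plus strand, gave 1529, 1502 and 1504 in the vehicle libraries, 1517, 1569 and 1602 at the low dose, 1747, 1725 and 1708 at the medium dose and 2256, 2271 and 2411 at the high dose. The high dose libraries of both genes lay above all others. The change of CALCOCO2 was 1.53-fold (log2 fold change 0.61, standard error 0.045, adjusted p = 1.71e-40), close to the 1.5-fold limit, and its log2 fold change was 0.58, below that limit, without replicate 3 of the high dose. TAX1BP1 (0.43) and NBR1 (0.34), which also bind ubiquitin and LC3, rose by less.

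Among the 5 ATG8 proteins 4 rose and 2 were DEGs, with a median of 0.44, beside 38.0% and 9.13% of genes at the members' level. MAP1LC3B, at chr16:87383953-87404779, plus strand, encodes LC3B, the protein most often used to mark autophagosomes. Its libraries held 1831, 1934 and 1758 normalised counts in vehicle, 1926, 1900.3 and 1940.0 at the low dose, 2536, 2406 and 2314 at the medium dose and 4728, 4845 and 4666 at the high dose. The low dose libraries overlapped those of vehicle, and the medium and high dose libraries lay above both and apart from each other. MAP1LC3B was 1.31-fold higher at the medium dose (adjusted p = 6.94e-17) and 2.58-fold higher at the high dose (log2 fold change 1.36, standard error 0.043, adjusted p = 3.19e-220). Its near copy MAP1LC3B2, with which reads may be shared, stood at 6.58 ± 1.58 in vehicle and 13.7 ± 4.87 at the high dose.

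GABARAPL1, at chr12:10212458-10223128, plus strand, belongs to the GABARAP branch of the family. It showed 408, 423 and 427 normalised counts in vehicle, 383, 411 and 394 at the low dose, 451, 412 and 429 at the medium dose and 739.7, 660.4 and 725 at the high dose. Here the medium dose overlapped vehicle (log2 fold change 0.04, adjusted p = 0.805) and the high dose did not (1.69-fold, log2 fold change 0.75, standard error 0.082, adjusted p = 3.6e-19). MAP1LC3A (0.44) and GABARAP (0.20) rose, and GABARAPL2 had a log2 fold change below 0.01 (adjusted p = 0.97).

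**Figure D2:**
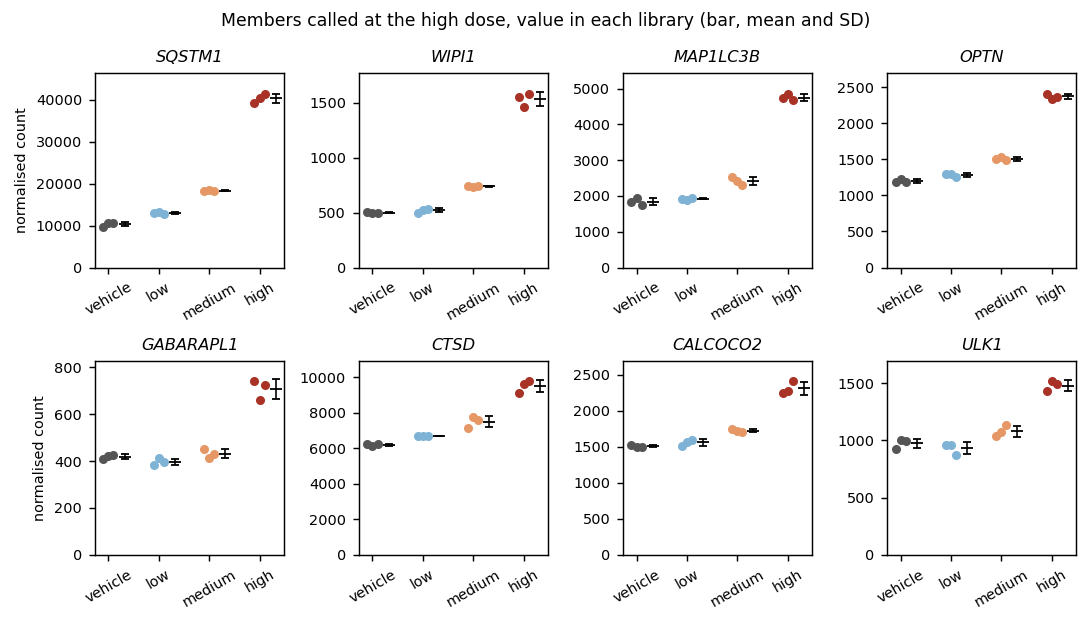
Normalised count (y axis, starting at 0) of the 8 members called at the high dose, 1 panel a gene, in each of the 3 vehicle, low, medium and high dose libraries (x axis), with a bar for the mean and SD. In every panel the 3 high dose libraries lie above all 9 others, and of these 8 genes SQSTM1 and CTSD also passed the test at the low dose.

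Both PI3P effectors rose. WIPI1, at chr17:68420948-68457513, minus strand, binds PI3P at sites where the autophagosome forms. Its normalised counts were 506, 501 and 494 in vehicle, 501, 523 and 538 at the low dose, 743, 734 and 743 at the medium dose and 1557, 1460.4 and 1581 at the high dose. The medium dose lay above vehicle without overlap but fell short of the fold limit (1.48-fold, adjusted p = 1e-14), and the high dose was 3.06-fold above vehicle (log2 fold change 1.61, standard error 0.065, adjusted p = 5.19e-133). Exons of ARSG on the opposite strand contribute to the 28.1% of WIPI1 exon bases that overlap such a gene, and ARSG had 52.2 ± 13.8 counts in vehicle and 90.3 ± 10.9 at the high dose. WIPI2, the member that recruits ATG16L1, had a log2 fold change of 0.25 (adjusted p = 4.29e-08).

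In the initiation group 3 of 4 genes rose and 1 fell, beside 38.0% and 32.3% of genes at the members' level. ULK1, at chr12:131894622-131923150, plus strand, is the kinase that mTORC1 holds in check. It gave 927, 1001 and 995 normalised counts in vehicle, 957, 963 and 872 at the low dose, 1035, 1075 and 1129.8 at the medium dose and 1429, 1515 and 1493 at the high dose, so that the high dose libraries stood clear of all others and the low dose overlapped vehicle. The high dose change was 1.52-fold (log2 fold change 0.60, standard error 0.059, adjusted p = 4.53e-23). Without replicate 1 of vehicle its log2 fold change was 0.57 and ULK1 was no longer a DEG. ATG13, its partner, rose by 0.49, and ULK2, its close relative, by 0.34. ATG9A, the lipid scramblase of the vesicles that seed the membrane, fell by 0.16 on the log2 scale (adjusted p = 0.00246). Of the exon bases of ATG9A 38.8% overlap a gene on the same strand.

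Of the lipid kinase complex ATG14 and UVRAG rose, and BECN1 did not pass the test (-0.08, adjusted p = 0.218). ATG14, at chr14:55366391-55411830, minus strand, directs the complex to autophagosome sites. Its libraries held 550.3, 544 and 622 in vehicle, 575, 611 and 614 at the low dose, 627, 671 and 625 at the medium dose and 788, 802 and 757 at the high dose. High and vehicle libraries did not overlap (1.37-fold, log2 fold change 0.45, standard error 0.075, adjusted p = 7.09e-09). Exon bases of ATG14 overlap the opposite-strand gene FBXO34 over 20.8%, which had 459 ± 0.063 normalised counts in vehicle and 539 ± 9.64 at the high dose. UVRAG, which defines the other form of the complex, had a log2 fold change of 0.44 (adjusted p = 9.94e-09).

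Of the 6 conjugation genes 2 rose, 1 fell and 3 did not pass the test at the high dose. At the members' level 38.0% of genes rose and 32.3% fell, so rises in this role were near the background. The E2-like enzyme of lipidation, ATG3 (0.25), and the ubiquitin-like partner of ATG5, ATG12 (0.15), were the genes that rose. ATG5, ATG7 and ATG16L1 had log2 fold changes of -0.09, -0.01 and -0.10. ATG4A, at chrX:108091668-108154671, plus strand, is a protease that trims ATG8 precursors and releases them from membranes. It showed 479.6, 456 and 486 normalised counts in vehicle, 459.8, 452 and 471 at the low dose, 415, 418 and 397 at the medium dose and 379, 359 and 355 at the high dose. Its high dose libraries lay below every vehicle and low dose library, a fall of 0.38 on the log2 scale (standard error 0.086, adjusted p = 3.64e-05).

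Of the 3 MiT/TFE factors 2 fell and 1 rose at the high dose. TFEB, at chr6:41683978-41736259, minus strand, had 307, 309 and 289 normalised counts in vehicle, 316, 323 and 272 at the low dose, 279, 288 and 286 at the medium dose and 245, 208 and 230.1 at the high dose. MITF, at chr3:69739456-69968336, plus strand, had 759, 690.4 and 733, then 767, 730.3 and 743, then 649, 662 and 626, and at the high dose 574, 509.9 and 556. In both genes the high dose libraries were the lowest of the series. The fall of TFEB was 0.41 on the log2 scale (standard error 0.11, adjusted p = 0.000736) and that of MITF was also 0.41 (standard error 0.074, adjusted p = 8.99e-08), and the high dose level of both was also below that of the medium dose in a direct test (adjusted p = 0.0121 and 0.00382). That last call was lost for both without replicate 2 of the high dose, and for TFEB also without replicate 2 of the medium dose.

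TFE3, at chrX:49028726-49043410, minus strand, went the other way. Its libraries held 2778, 2659.8 and 2828 in vehicle, 2827, 2960.1 and 2834 at the low dose, 2927, 3092 and 3001 at the medium dose and 3366, 3188 and 3405 at the high dose, with no overlap between high dose and vehicle. The change was 1.21-fold (log2 fold change 0.27, standard error 0.040, adjusted p = 1.49e-10). Per kilobase of exon TFE3 was the most abundant of the 3, with a mean level of 655 normalised counts per kb in vehicle beside 98.1 for MITF and 44.9 for TFEB. These factors are controlled chiefly by where they sit in the cell, which transcript levels do not show.

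**Figure D3:**
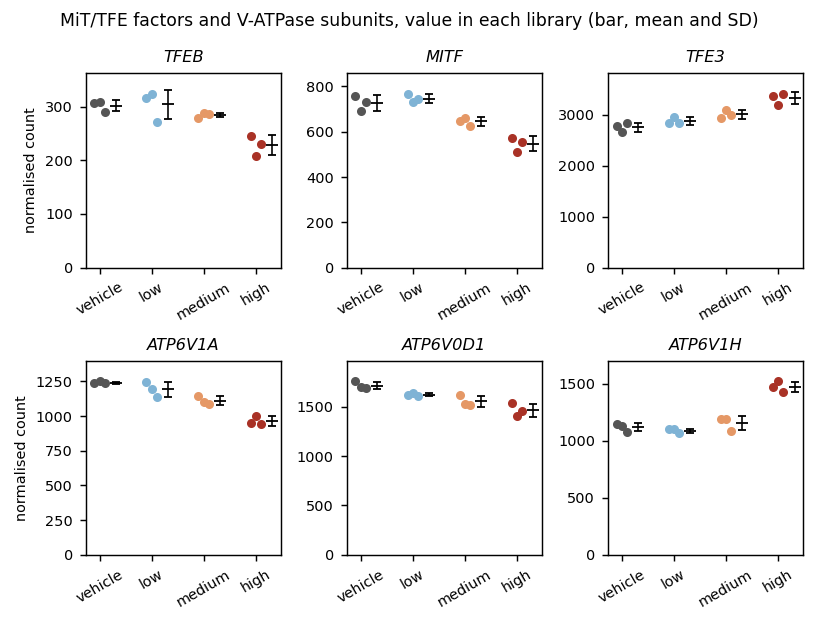
Normalised count (y axis, starting at 0) of the MiT/TFE factors TFEB, MITF and TFE3 and of the V-ATPase subunits ATP6V1A, ATP6V0D1 and ATP6V1H in each library of the 4 groups (x axis), with a bar for the mean and SD. TFE3 and ATP6V1H are highest at the high dose, and the other 4 genes have their lowest mean there.

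The promoter stretches below are shown because members of the lysosomal set are known to carry the CLEAR element, to which MiT/TFE factors bind. Windows from 250 bases before to 50 after the start of transcription came from RefSeq (GRCh38.p14) and were found for 36 of the 43 members (not for MAP1LC3A, UVRAG, LAMP2, CTSB, HEXA, ATP6V1H and ATP6V1A). Both strands were searched for CACGTG (the E-box), TCACGTGA (the core of CLEAR, which contains an E-box), TGATGNAA (CARE, the letters bound by ATF4 dimers) and TGACNNNGC (ARE, the letters bound by NRF2). The E-box was in 8 members (22.2%) and in 7.435% of all 27305 windows, the CLEAR core in 5 (13.9%) and 1.036%, the ARE in 9 (25.0%) and 13.558%, and the CARE in 0 members and 3.673% of windows. Among the 11107 windows of genes with a mean count of at least 10, the shares were 9.97%, 1.91%, 15.0% and 1.67% for E-box, CLEAR core, ARE and CARE. Each line gives the 80 bases before the start and the first 20 transcribed bases, 5′ to 3′ on the gene's strand, with the matched letters in capitals. The first 5 genes hold the CLEAR core, the next 2 are DEGs with another match, and the last 2, the DEGs with the largest changes, hold none of the 4 motifs in these stretches.
LAMP1 (chr13:113297159-113297258, plus strand): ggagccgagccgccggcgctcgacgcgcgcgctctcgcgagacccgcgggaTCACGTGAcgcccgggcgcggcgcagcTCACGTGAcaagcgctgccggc
MCOLN1 (chr19:7522544-7522643, plus strand): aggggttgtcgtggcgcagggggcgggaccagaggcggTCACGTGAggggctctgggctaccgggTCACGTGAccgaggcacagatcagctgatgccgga
CTSA (chr20:45891255-45891354, plus strand): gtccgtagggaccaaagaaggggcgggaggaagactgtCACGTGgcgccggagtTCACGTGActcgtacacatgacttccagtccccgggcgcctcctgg
ATG3 (chr3:112561943-112562042, minus strand): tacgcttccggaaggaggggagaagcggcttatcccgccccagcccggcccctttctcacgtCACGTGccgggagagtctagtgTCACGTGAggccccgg
ATP6V0D1 (chr16:67481138-67481237, minus strand): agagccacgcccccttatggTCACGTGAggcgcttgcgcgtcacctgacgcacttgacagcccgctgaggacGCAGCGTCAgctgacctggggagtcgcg
CTSD (chr11:1763908-1764007, minus strand): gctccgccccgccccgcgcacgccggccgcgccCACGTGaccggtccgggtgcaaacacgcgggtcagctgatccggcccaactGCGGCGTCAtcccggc
MAP1LC3B (chr16:87392256-87392355, plus strand): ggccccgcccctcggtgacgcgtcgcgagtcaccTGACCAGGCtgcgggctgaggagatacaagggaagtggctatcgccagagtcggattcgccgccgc
SQSTM1 (chr5:179806313-179806412, plus strand): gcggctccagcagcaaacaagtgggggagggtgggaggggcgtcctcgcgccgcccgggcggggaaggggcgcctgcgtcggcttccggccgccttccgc
WIPI1 (chr17:68457477-68457576, minus strand): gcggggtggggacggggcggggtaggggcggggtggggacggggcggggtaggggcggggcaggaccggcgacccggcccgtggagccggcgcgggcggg

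A match of letters is a description and does not show that a factor binds. Bases outside the windows were not searched, so a gene without a match here may hold the motif elsewhere. The 5 genes with the CLEAR core had log2 fold changes at the high dose of 0.23 for LAMP1, 0.30 for MCOLN1, 0.10 for CTSA, 0.25 for ATG3 and -0.23 for ATP6V0D1, so that 4 were higher and 1 was lower than in vehicle, none of them past 1.5-fold. Of the 8 DEGs, CTSD held an E-box, 3 (MAP1LC3B, CALCOCO2 and CTSD) held an ARE, and 0 held the CLEAR core or the CARE in the whole window.

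In the lysosome, 7 of the 9 hydrolases and all 3 membrane proteins rose at the high dose, with medians of 0.39 and 0.23. The background at the members' level was 38.0% rising. CTSD, at chr11:1752752-1764573, minus strand, is the main aspartic protease of the lysosome and was the only DEG among these hydrolases and membrane proteins. It held 6214, 6135 and 6225 normalised counts in vehicle, 6668, 6698 and 6712 at the low dose, 7154, 7781 and 7570.4 at the medium dose and 9115, 9626 and 9764 at the high dose. Each group lay above the one below it in dose without overlap, and the changes were 1.08-fold (adjusted p = 0.0265), 1.21-fold (adjusted p = 1.25e-15) and 1.54-fold (log2 fold change 0.62, standard error 0.033, adjusted p = 1.53e-78). Of its exon bases 23.4% overlap the opposite-strand gene PRADX, which stood at 13.1 ± 1.6 in vehicle and 87.8 ± 7.27 at the high dose, and 27.3% overlap a gene on the same strand.

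The other rising hydrolases were TPP1 (0.53), a peptidase lost in a neuronal ceroid lipofuscinosis, CTSL (0.52), the sialidase NEU1 (0.48), HEXA (0.39), which breaks down gangliosides, CTSB (0.27) and CTSA (0.10), the protein that protects NEU1. Of the exon bases of CTSA 21.5% overlap genes on the other strand. PLTP is among these and went from 91.9 ± 2.78 in vehicle to 231 ± 28.2 at the high dose. GLA, the alpha-galactosidase, fell by 0.21 on the log2 scale (adjusted p = 0.000461), and CTSZ did not pass the test (adjusted p = 0.936). MCOLN1, at chr19:7522624-7534009, plus strand, is the calcium channel of the lysosomal membrane. It had 373, 404 and 399 normalised counts in vehicle, 453, 449.8 and 410.2 at the low dose, 469, 417 and 482 at the medium dose and 491, 466 and 489 at the high dose. High dose and vehicle did not overlap, while the medium and high dose libraries did (1.23-fold against vehicle, log2 fold change 0.30, standard error 0.089, adjusted p = 0.00259). The membrane glycoproteins LAMP1 and LAMP2 rose by 0.23 and 0.15.

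The V-ATPase members were split. ATP6V1H, a regulatory subunit of the cytosolic part of the pump at chr8:53715543-53843558, minus strand, held 1148, 1128 and 1077 in vehicle, 1098, 1098 and 1066 at the low dose, 1186, 1192 and 1086 at the medium dose and 1466, 1519 and 1427 at the high dose. The high dose alone stood above the other groups (1.32-fold against vehicle, log2 fold change 0.40, standard error 0.056, adjusted p = 6.58e-12). ATP6V1A, the catalytic subunit, went from 1241 ± 7.55 in vehicle to 964 ± 32.8 at the high dose and fell by 0.36 on the log2 scale (adjusted p = 7.49e-10). ATP6V0D1, a membrane-side subunit, went from 1714 ± 37.1 to 1463 ± 65.9 and fell by 0.23 (adjusted p = 1.07e-05). Of 15 further subunits and accessory proteins 10 rose (66.7%) and 4 fell (26.7%), beside 38.0% and 32.3% of genes at the members' level. The only DEG among them was ATP6V1G1 (1.55-fold), or 6.67% of the list, below the background of 8.66% upward.

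Levels between genes were compared per kilobase of exon, with all annotated exons of a gene merged. That length ran from 1152 bases for MAP1LC3A to 19384 for CTSZ. It can exceed the length of the transcripts present, so the order of genes depends on it. Of the exon bases of GABARAP 35.4% overlap a gene on the same strand. In vehicle LAMP1 (1832 normalised counts per kb) and GABARAP (1731) came first, followed by SQSTM1 (1370), CTSD (1087) and LAMP2 (932), and TFEB came last. At the high dose SQSTM1 was first with 5347 per kb, and LAMP1 (2152), GABARAP (1983), CTSD (1668) and LAMP2 (1033) followed. MAP1LC3B moved from rank 14 (366 per kb) to rank 6 (942), and WIPI1 from rank 30 (147) to rank 15 (450). The summed normalised count of the 43 members was 105033 ± 455 in vehicle and 158566 ± 2085 at the high dose, of which SQSTM1 made up 9.83% ± 0.450 and 25.4% ± 0.371. Without SQSTM1 the sums were 94710.3 ± 194 and 118274 ± 982, so SQSTM1 carried more of the added counts than the other 42 members combined.

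**Figure D4:**
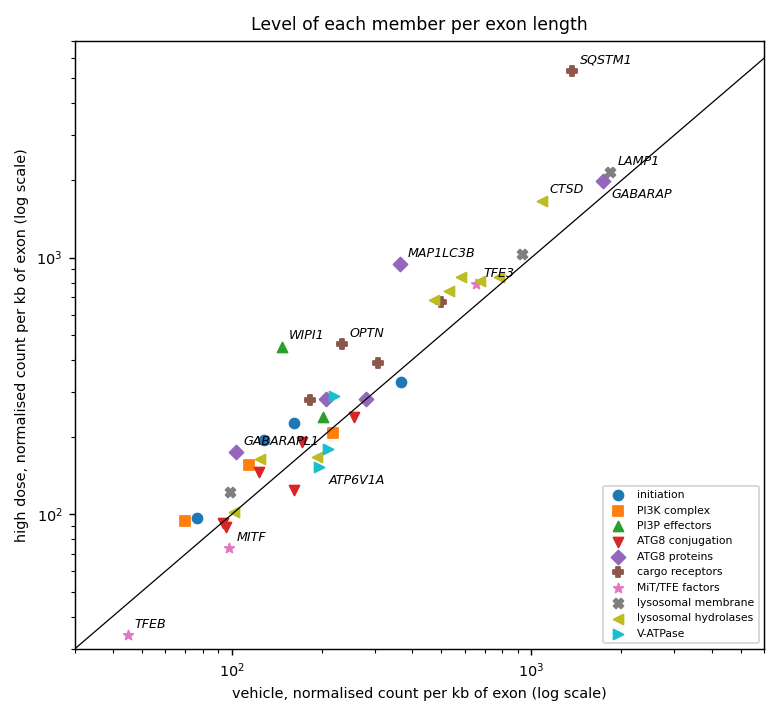
Mean normalised count per kb of exon of each of the 43 members in vehicle (x axis, log scale) and at the high dose (y axis, log scale), with marker shapes for the 10 roles and a line of equal level. SQSTM1, WIPI1 and MAP1LC3B lie farthest above the line, and TFEB, MITF and ATP6V1A lie below it.

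Fewer members passed the test at the lower doses. At the medium dose 18 rose and 4 fell, where 15.1% of the 14082 tested genes rose and 14.5% fell, and the members' median log2 fold change was 0.11. Leaving out any 1 library of the medium dose or vehicle lost 3 to 8 of those 22 calls, with 8 lost without replicate 2 of the medium dose. The 4 falls (ATG4A, GLA, ATP6V0D1 and ATP6V1A) were all lost without replicate 1 of vehicle, replicate 2 of the medium dose or replicate 3 of the medium dose. SQSTM1 was the only DEG of 43 at that dose (background 2.34% upward, 1.48% downward). At the low dose 4 rose (SQSTM1, TPP1, ATG3 and CTSD, with log2 fold changes of 0.33, 0.18, 0.23 and 0.11) and 0 fell, where 2.05% of 9304 tested genes rose and 1.24% fell. No member was a DEG at the low dose by DESeq2 or edgeR (background 0.0967% upward, 0.0215% downward), and 7 had an unadjusted p under 0.05. ATG3 and CTSD were the low dose calls that depended on single libraries. ATG3 lost the call without any 1 of replicates 1 and 2 of vehicle and replicates 1 and 3 of the low dose, and CTSD without any 1 of the 6 libraries compared, which left 2 or 3 calls.

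The step from the medium to the high dose was tested directly. There 25 members rose and 3 fell (TFEB, MITF and ATP6V1A), where 21.1% of the 16467 tested genes rose and 19.8% fell. SQSTM1 (2.21-fold), WIPI1 (2.07-fold), MAP1LC3B (1.96-fold), GABARAPL1 (1.65-fold) and OPTN (1.57-fold) were the 5 DEGs, all upward (background 4.58% upward, 5.61% downward). In a likelihood ratio test 37 of the 43 members differed among the 4 groups, and 45.8% of all tested genes did. Shares among genes at the members' level were taken only for the high dose against vehicle. There 38.0% rose and 32.3% fell, beside 23.9% and 22.6% of all tested genes. The shares of all tested genes given for the other comparisons may therefore understate the background at the members' level.

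A further 126 genes of the pathway were listed by function. At the high dose 67 of them rose and 21 fell, and 20 were DEGs upward and 2 downward, with a median log2 fold change of 0.19. As shares, 53.2% rose and 16.7% fell, beside 23.9% and 22.6% of all tested genes and 38.0% and 32.3% of those at the members' level, and 15.9% were DEGs upward and 1.59% downward, beside 8.66% and 9.57% of all tested genes. The largest changes lay among 25 genes that control mTORC1 at the lysosome, of which 15 rose and 2 fell, with 8 DEGs upward and 1 downward. SESN2, a leucine sensor that restrains mTORC1, held 366, 372 and 384 normalised counts in vehicle, 449, 471 and 506 at the low dose, 1333, 1386 and 1403 at the medium dose and 2411, 2412 and 2663 at the high dose. No group overlapped the next in dose, and SESN2 was 6.67-fold higher at the high dose (log2 fold change 2.74, standard error 0.068). DDIT4, another mTORC1 inhibitor, was 2.97-fold higher (adjusted p = 6.12e-181) and the Rag GTPase RRAGC 2.09-fold (adjusted p = 1.28e-107). RRAGD, named after its values were seen because it is the close relative of RRAGC, had 11.3, 9.64 and 6.24 in vehicle and 88.0, 111 and 100.1 at the high dose, a log2 fold change of 3.46 from a low level (adjusted p = 7.99e-19). FLCN and FNIP1, which activate RRAGC and RRAGD and were likewise chosen after seeing values, rose 1.77-fold and 2.03-fold. All genes chosen in that way rose, while the lowest log2 fold change in the mTORC1 list was -0.89.

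Background shares were 38.0% rising and 32.3% falling at the members' level, and 8.66% for DEGs upward among all tested genes. Of 22 other autophagy core genes 11 rose and 4 fell (18.2%), with 5 DEGs upward (22.7%). The leading ones were PLEKHM1 (1.96-fold) and EPG5 (1.89-fold), which act in the fusion of autophagosomes with lysosomes, and TMEM41B (1.83-fold), a lipid scramblase. Of 17 organelle receptors 10 rose (58.8%) and 3 fell (17.6%). CCPG1, a receptor for the endoplasmic reticulum, rose 2.93-fold from 1436 ± 57.0 to 4197 ± 184 (adjusted p = 4.55e-237), and BNIP3, a mitophagy receptor induced by hypoxia, went from 2459 ± 78.8 to 1584 ± 20.8, a fall of 0.64 on the log2 scale (adjusted p = 2.42e-44). Of the exon bases of CCPG1 38.9% overlap a gene on the same strand. Of 35 other hydrolases 14 rose (40.0%, near the 38.0% of genes at the members' level) and 5 fell. The DEGs among them were DPP7 (2.11-fold) and CTSH (1.52-fold), or 5.71% of the list, below the background of 8.66%. Of 12 other membrane and lumen proteins 7 rose (58.3%) and 3 fell (25.0%). The leading ones were the cholesterol exporter NPC1 (2.31-fold, 4159, 3936 and 3899.6 in vehicle and 9231, 9116 and 9362 at the high dose) and the cystine exporter CTNS (1.74-fold).

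**Figure D5:**
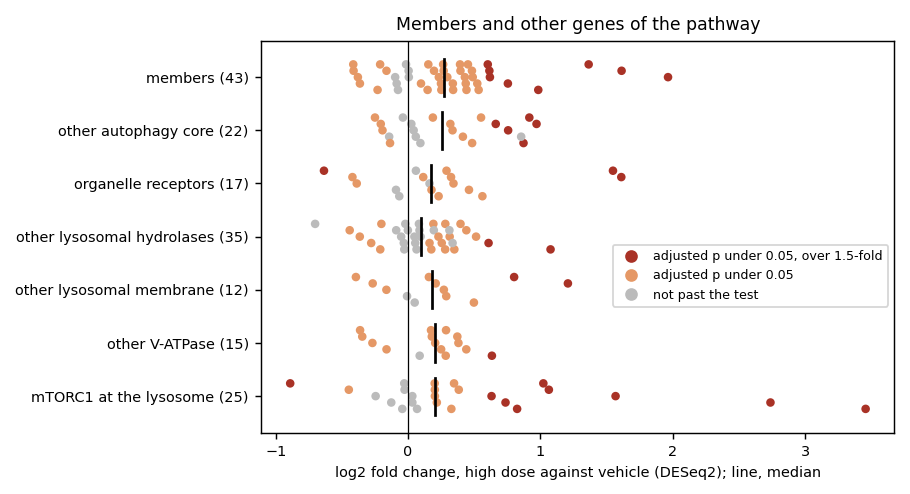
Log2 fold change at the high dose against vehicle (x axis, DESeq2) of the 43 members and of the 126 further pathway genes in 6 lists (y axis), with a line at each list's median and colour for the call. Genes of the mTORC1 list reach the largest values, up to 3.46 for RRAGD and 2.74 for SESN2, and every list has members on both sides of 0.

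Total counts per library lay between 18863863 and 24200576, and the 43 members made up 0.519% of all counts in vehicle and 0.724% at the high dose. Mitochondrial ribosomal RNA moved with the groups, with shares of 0.913% to 0.960% in vehicle, 3.01% to 3.33% at the low dose, 7.67% to 8.05% at the medium dose and 5.76% to 6.06% at the high dose, and leaving all mitochondrial genes out of the fit left the members' counts of calls as they were. Of 9 markers of astrocytes and glioma, 5 were present and moved with the groups. From vehicle to the high dose the glutamate transporter gene SLC1A3 went from 690.1 ± 21.8 to 126 ± 4.28 (log2 fold change -2.45, adjusted p = 3.89e-115), NES from 214 ± 11.6 to 64.7 ± 7.21 (-1.72), CD44 from 56908 ± 802 to 43678 ± 518 (-0.38), SOX9 from 1434 ± 47.2 to 1206 ± 64.5 (-0.25) and VIM upward by 0.29. The other 4 had at most 10 counts. GFAP reached at most 6 counts and AQP4 was at 0 in all libraries, so these 2 defining astrocyte markers were absent or nearly so. The sum over the 9, mostly VIM and CD44, ran from 144279 to 152078 in vehicle, 149749 to 152816 at the low, 151156 to 156339 at the medium and 152311 to 154030 at the high dose. The summed level of 5 epithelial markers ran from 4874 to 5078 in vehicle, 4179 to 4460.0 at the low, 3748 to 4033 at the medium and 1809 to 1890.5 at the high dose, and 2 of them had at most 10 counts. That of 5 microglial markers ran from 336 to 350, 320 to 347, 219 to 246 and 102 to 142, with 3 at most at 10 counts. From vehicle to the high dose PTPRC went from 275 ± 15.6 to 84.8 ± 19.8 (log2 fold change -1.71, adjusted p = 1.61e-28) and CSF1R from 68.0 ± 8.29 to 30.9 ± 3.36 (-1.14, adjusted p = 1.96e-05). Neuronal markers (5, with 2 at most at 10 counts) summed to 1332 to 1394, 1115 to 1264, 1083 to 1102 and 1013 to 1086 in the same order, a sum of opposite changes, since SNAP25 went from 704 ± 20.4 in vehicle to 167 ± 13.6 at the high dose (log2 fold change -2.07, adjusted p = 3.72e-91) and SYT1 from 638 ± 15.4 to 868 ± 21.8 (0.44, adjusted p = 3.63e-10). Oligodendrocyte markers (5, with 3 at most at 10 counts and MAG at 0) summed to 138 to 174, 150 to 172, 179 to 202 and 282 to 291. That sum was mostly MBP, which went from 143 ± 16.0 in vehicle to 258 ± 1.67 at the high dose (log2 fold change 0.85, adjusted p = 8.61e-10). OLIG2 went from 1.56 ± 1.38 to 24.5 ± 3.14, a log2 fold change of 3.93 from a very low level (adjusted p = 6.63e-06). The part of these shifts in the members' changes was not tested. The codes of the vehicle columns begin with another digit than those of all dosed columns, and anything that digit marks cannot be told apart from the treatment.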

How the data were processed

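Per the labels and the methods, the authors made directional mRNA libraries, checked the paired reads with FastQC, trimmed them with Trim Galore, aligned them to GRCh38 with STAR and counted with RSEM. The submitters' processing notes give FastQC 0.11.9, Trim Galore 0.6.5, STAR 2.7.3a and RSEM 1.3.3. The study's methods name other versions of Trim Galore and STAR and write an older build name beside GRCh38, and which versions made the table is not settled here. The deposited values are RSEM expected counts per gene, which need not be whole (8.75% were not) because reads that match several genes are shared out. Use of strand in the RSEM counting is not given in the sources used here.

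Expected counts were rounded. Genes at 0 throughout were dropped, and DESeq2 1.42.0 (R 4.3.3) was fitted to the 12 libraries together, with 1 term for group, a Wald test (two-sided) for each contrast and independent filtering at 0.05, with Benjamini-Hochberg adjustment over all genes. "Rose" and "fell" mean an adjusted p under 0.05. Normalised counts are divided by DESeq2 size factors. The fit was tested on simulated data in which 200 of 24796 genes were changed. There 91% of the changed genes passed the test, and so did 28 unchanged genes, 11 of them as DEGs. Far fewer genes changed in that simulation than passed at the high dose here, so its rates need not hold for these data. Symbols, coordinates and exon lengths came from GENCODE v44. Replicates differed by more than counting noise, so 12 libraries were kept.

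Members, lists and tests were chosen with earlier results of these data known. Values in every library are given for DEGs, for the member with the largest change in each role and for the MiT/TFE factors. Of each further list, up to 3 DEGs with the largest change and a mean of at least 100 are named. Alternatives were edgeR 4.0.16, other scaling, filters and thresholds, a replicate block and leaving out each library.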

Additional observations from a re-analysis of the deposited data

How the results depend on the processing

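At the high dose 8 members were DEGs by DESeq2 and 8 by edgeR. A test of each change against the 1.5-fold limit itself called 4 members at the high dose, 14 further pathway genes and 3 members between the high and medium doses. The 4 were SQSTM1, WIPI1, MAP1LC3B and OPTN, while ULK1, GABARAPL1, CALCOCO2 and CTSD did not pass that test. With the adjusted p alone, 37 members and 88 further genes were called at the high dose, 22 members at the medium dose, 4 at the low dose and 28 between high and medium. Those numbers follow from how strict each rule is. Leaving out 1 library at a time gave 2 to 3 members past the test at the low dose, and a median log2 fold change at the high dose of 0.2575 to 0.299. For the 15 members given library by library, 225 values were recomputed. Of these 0 changed sign, 6 lost the call and 7 gained it. All 7 gains came with the adjusted p alone, a rule that drops the fold limit. Settings that changed only a threshold or the level of independent filtering kept the fold changes of the main fit. Their sign could not change.

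Same-numbered replicates were not treated as pairs, since their deviations from the group means correlated at -0.118 to 0.221 over 18 pairs of libraries, with 5 over 0.1. All 5 were between dosed groups, and 0 of 36 pairs with other numbers were over 0.1. Between the low and medium doses, which were not compared here, all 3 pairs were over 0.1 (0.124 to 0.193) and 6 of 6 libraries correlated best with their own number, as a hint of a shared factor. Between medium and high doses 3 of 6 did, and between vehicle and each dose 0 of 6 did. With the replicate number as a block, 8 members were DEGs at the high dose, 37 passed the test there and 19 passed at the medium dose. Those block counts are against vehicle, where 0 of 6 libraries correlated best with their own number. None is given here for high against medium, where 3 of 6 did.

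With 3 libraries a group, changes of low genes such as RRAGD are the least precise.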
